A study of Mus musculus with 6 samples.

Results

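The ABCD transporter genes Abcd2, Abcd3 and Abcd4 were compared between livers of mice given Vascepa and livers of mice given vehicle. The 3 genes were taken as relatives in 1 subfamily, from 22180 genes with a probe of their own on the array. Abcd2 was chosen by its difference between Vascepa and vehicle on these same 6 arrays, so that difference is described here without a test. Abcd3 and Abcd4 were added as its relatives. Each had 1 probe (a transcript cluster of the array), no probe carried a member's symbol together with another symbol, and all 3 lay above the intensity filter that left 13493 genes for comparison.

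One group was 3 liver samples of male C57BL/6 mice dosed with Vascepa for 7 days before 6 weeks on a high-fat diet, and the other was 3 liver samples of male C57BL/6 mice dosed with vehicle for 7 days before the same diet. The labels put the mice at 8 weeks of age when a 1-week acclimatization began. Vascepa is icosapent ethyl, the ethyl ester of eicosapentaenoic acid, a polyunsaturated omega-3 fatty acid. The labels give no dose, vehicle or diet composition, and both groups ate the diet, so no comparison with a standard diet was made. Whether each sample was a different animal is not stated, so the spread within a group may be technical.

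ABCD proteins belong to the ATP-binding cassette (ABC) superfamily of transporters. Each carries a membrane domain and an ATPase domain, and works only as a dimer. Abcd2 and Abcd3 sit in the peroxisomal membrane and bring in fatty acyl-CoAs that mitochondria handle poorly. Abcd2 (also called ALDRP) takes very long-chain and polyunsaturated acyl-CoAs, among them those of the omega-3 series, and in mice it is best known from adipose tissue and brain. Abcd3 (PMP70), one of the most abundant peroxisomal membrane proteins of the liver, takes dicarboxylic and branched-chain acids and the precursors of bile acids. Abcd4, despite its family, is known as a lysosomal protein that lets cobalamin (vitamin B12) out of lysosomes together with Lmbrd1, so the family name does not place all 3 products in the peroxisome.

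Values are log2 expression after RMA, and a difference of 1 is a 2-fold change. Levels are compared only within a gene, since the probes of different genes bind with different strength. Across the genes compared, r between 2 arrays ran from 0.906 to 0.986. Vascepa replicate 3 stood farthest from the others, with a mean r of 0.938 against 0.959 to 0.973 for the other 5 arrays. Small nucleolar RNAs, 83 probes, averaged 5.12, 6.18 and 6.67 on Vascepa replicates 1, 2 and 3 and 5.28, 6.02 and 5.46 on vehicle replicates 1, 2 and 3. The liver markers Alb and Ttr read at least 13.18 and 12.83 on every array. Of 9 hepatocyte markers with a probe, Ass1 was dim, at 2.97 to 4.26 in Vascepa livers and 3.72 to 3.87 in vehicle livers. In bulk liver, fewer cells of a type and less RNA per cell cannot be told apart.

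Abcd2 was lower on every array of the Vascepa group than on any array of the vehicle group. It read 5.32, 5.63 and 5.84 in Vascepa livers, against 7.11, 6.66 and 7.18 in vehicle livers. The lowest vehicle array lay 0.82 above the highest Vascepa array, while the arrays within a group spanned 0.52 in Vascepa livers and 0.51 in vehicle livers. Abcd2 averaged 5.60 ± 0.26 in Vascepa livers and 6.98 ± 0.28 in vehicle livers (SD, n = 3 each). The log2 difference was −1.39 ± 0.23 (limma's moderated SE), a 2.61-fold lower level.

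Abcd3 showed no such separation. It read 10.15, 9.92 and 9.14 in Vascepa livers, against 9.94, 9.44 and 9.96 in vehicle livers. The groups overlapped, and both the highest and the lowest value belonged to Vascepa arrays. Abcd3 averaged 9.74 ± 0.53 in Vascepa livers and 9.78 ± 0.29 in vehicle livers (SD, n = 3 each). The difference was −0.04 ± 0.30, with a 95% interval from −0.72 to 0.64, so a change of about 1.5-fold in either direction lay inside the interval. Its sign was not settled: the difference was 0.26 without Vascepa replicate 3, 0.04 without vehicle replicate 1 and 0.05 without vehicle replicate 3.

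Abcd4 read 3.94, 4.05 and 3.22 in Vascepa livers, against 3.92, 3.76 and 3.98 in vehicle livers. Vascepa replicate 1 lay inside the vehicle range, replicate 2 just above it, and replicate 3 below every other array. Abcd4 averaged 3.74 ± 0.45 in Vascepa livers and 3.89 ± 0.11 in vehicle livers (SD, n = 3 each). The difference was −0.15 ± 0.25, with a 95% interval from −0.73 to 0.43, and without Vascepa replicate 3 it was 0.11. Its values lay not far above the filter level of 2.65, and RMA compresses differences at the dim end.

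**Figure D1:**
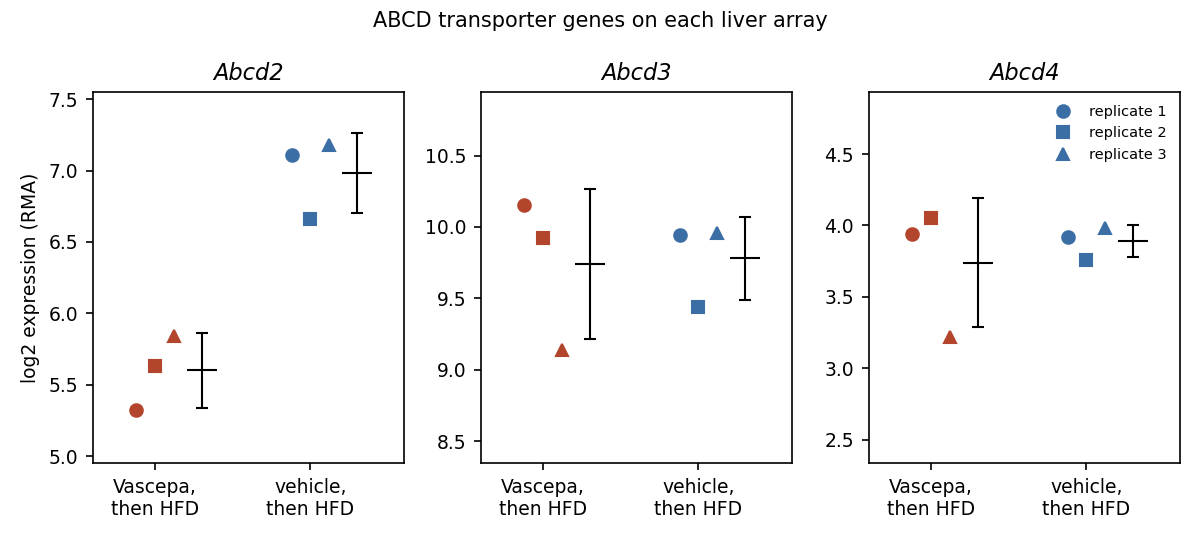
Each panel plots the log2 expression of 1 ABCD gene on the 3 Vascepa arrays (red, left) and the 3 vehicle arrays (blue, right), with marker shapes for replicate numbers and a black bar for the group mean ± SD (n = 3). The vertical axes have different levels but the same length. Abcd2 lies between 5.32 and 5.84 in Vascepa livers and between 6.66 and 7.18 in vehicle livers, while the groups overlap in Abcd3 and Abcd4.

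Of the 13493 genes compared, 0% passed limma's test at an adjusted p (Benjamini-Hochberg) under 0.05, and Abcd2, Abcd3 and Abcd4 were not exceptions. With array quality weights Abcd2 passed (limma, adjusted p = 0.000817), and so did 4100 of the 13493 genes. Vascepa replicate 2 then had a weight of 39.5 and the others at most 2.33, and the weight estimate stopped before it converged. Without weights, the unadjusted p was under 0.05 in 362 genes, 221 of them lower and 141 higher in Vascepa livers. Groups that did not overlap with Vascepa lower were found for 5.11% of all genes (689), and 1 of the 3 ABCD genes was among them. A level at least 2-fold lower in Vascepa livers was found for 0.133% of genes (18), and 4 genes had a lower difference than Abcd2. Since Abcd2 was chosen for this difference, its place in that order and its pass with weights support nothing further. Of all genes, 60.1% had a lower mean after Vascepa, with a median difference of −0.06. Brighter genes lay lower. Over the 7211 genes with a mean at or above the 75th percentile of all probes, the median difference was −0.143.

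The contrast of Abcd2 with its relatives within an array removes any shift that the array gives to all 3 genes. It also brings in any shift of Abcd3 and Abcd4 that Abcd2 does not share. Within groups, r of Abcd2 was −0.19 with Abcd3 and −0.3 with Abcd4. On the Vascepa arrays the SD was 0.72 for the contrast and 0.26 for Abcd2 alone. Abcd2 minus the mean of Abcd3 and Abcd4 was −1.73, −1.35 and −0.34 in Vascepa livers, against 0.19, 0.06 and 0.20 in vehicle livers. The groups did not overlap, but the Vascepa arrays were uneven, and Vascepa replicate 3 lay nearest to the vehicle arrays. This contrast averaged −1.14 ± 0.72 in Vascepa livers and 0.15 ± 0.08 in vehicle livers (SD, n = 3 each). The difference of −1.29 ± 0.42 (SE over arrays) corresponds to 2.44-fold. Leaving out 1 array at a time, it ran between −1.69 without Vascepa replicate 3 and −1.0 without Vascepa replicate 1. No test is given, because Abcd2 was chosen for its difference.

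Against each relative alone the picture was similar. Abcd2 minus Abcd3 was −4.84, −4.29 and −3.30 in Vascepa livers, against −2.82, −2.78 and −2.79 in vehicle livers. On the vehicle arrays the pair of peroxisomal transporters thus kept almost the same distance (SD 0.02), and the array lowest in Abcd2 was also lowest in Abcd3. On the Vascepa arrays the order was turned, since the array with the lowest Abcd2, replicate 1, had the highest Abcd3, and replicate 3 had the highest Abcd2 and the lowest Abcd3. Abcd2 minus Abcd4 was 1.38, 1.58 and 2.62 in Vascepa livers, against 3.19, 2.90 and 3.19 in vehicle livers. The distance between the relatives themselves, Abcd3 minus Abcd4, was 6.22, 5.87 and 5.93 in Vascepa livers and 6.02, 5.68 and 5.98 in vehicle livers, and these groups overlapped.

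**Figure D2:**
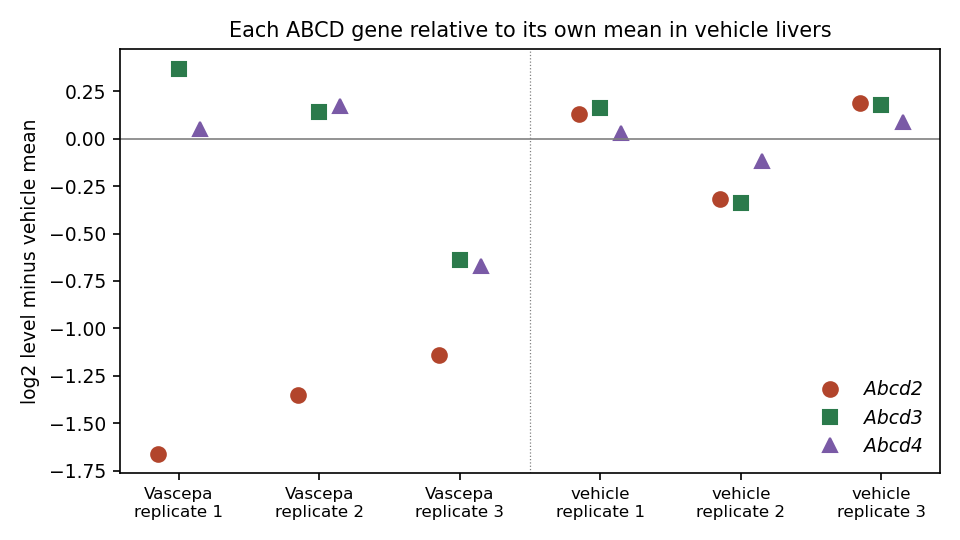
Log2 level of each ABCD gene minus its own mean over the vehicle arrays, with the 3 Vascepa arrays on the left and the 3 vehicle arrays on the right of the dotted line. Abcd2 lies at −1.66, −1.35 and −1.14 on the Vascepa arrays, whereas Abcd3 and Abcd4 leave the vehicle level by more than 0.5 only on Vascepa replicate 3, at −0.64 and −0.67.

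Many of the other genes of the ABC superfamily, but not all, carry bile salts, lipids, drugs, heme or peptides across membranes. Of 38 listed, 36 had a probe of their own and 33 were above the filter. Their group means were lower after Vascepa in 24 and higher in 9, where 60.1% of all genes were lower. The median difference was −0.14, against −0.06 over all genes and −0.143 over the 7211 brighter genes. Differences of the 33 genes ranged from −0.68 to 0.35. Those with the largest absolute differences were Abcc3, an exporter of bile acid and drug conjugates (−0.68 ± 0.45), Abca3, a phospholipid transporter (−0.62 ± 0.62), Abcb10 of the mitochondrial inner membrane (−0.51 ± 0.35) and Abca8b (−0.39 ± 0.48). None passed (limma, adjusted p = 0.976 for each). The count rested on Vascepa replicate 3: without it 9 were lower and 24 higher, with a median of 0.09. In 1 of the 33, Abcg3, Vascepa arrays were all lower than vehicle arrays, with 5.11% of all genes as background.

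**Figure D3:**
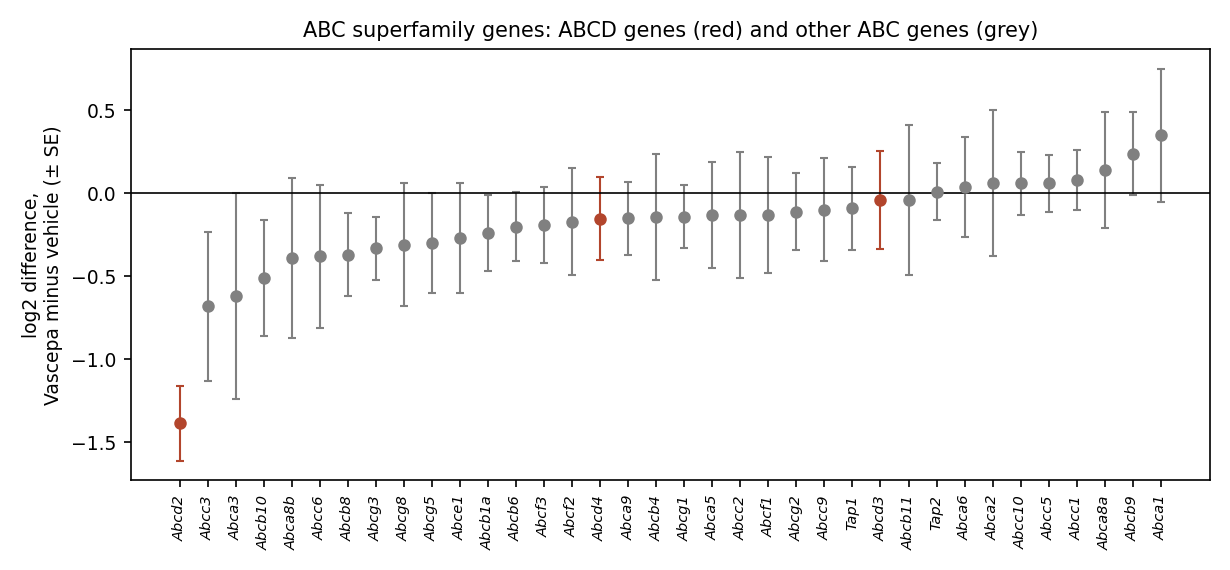
Log2 difference, Vascepa minus vehicle, of the 3 ABCD genes (red) and 33 other ABC genes (grey), in order of size, with bars for limma's moderated SE. Abcd2 lies at −1.39, the 33 other ABC genes between −0.68 and 0.35, and Abcd4 and Abcd3 lie among them at −0.15 and −0.04.

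Most enzymes that receive what Abcd2 and Abcd3 import had lower means in Vascepa livers, and so did 60.1% of all genes. Of 25 listed genes of peroxisomal fatty acid oxidation 23 were compared, 17 lower and 6 higher, with a median difference of −0.18, and without Vascepa replicate 3 they were 14 lower and 9 higher with a median of −0.11. Without that array 7158 of the 13493 genes were lower. None of the 23 passed the adjusted threshold. At an unadjusted p under 0.05, 2 were lower and 0 higher, where 1.64% of all genes were lower and 1.04% higher. Acaa1b, a thiolase of the last step, read 7.95, 8.19 and 8.05 in Vascepa livers, against 8.65, 8.58 and 8.70 in vehicle livers (−0.58 ± 0.17; limma, adjusted p = 0.976). Crat, which moves short acyl groups onto carnitine, read 6.51, 6.18 and 5.85 in Vascepa livers, against 6.67, 6.67 and 7.02 in vehicle livers (−0.61 ± 0.23; limma, adjusted p = 0.976). The Crat value is that of its brightest probe, and the mean over the probes of Crat differed by −0.22. In 4 of the 23 genes, Acaa1b and Crat among them, all Vascepa arrays were lower than all vehicle arrays, with 5.11% of all genes as background.

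Other steps of peroxisomal oxidation gave smaller or more uneven values. Decr2, a reductase for unsaturated acyl-CoAs, differed by −0.41 ± 0.19 and Ehhadh, the bifunctional enzyme of the classic pathway, by −0.33 ± 0.19, and these were the other two of the 4 without overlap. Hsd17b4, the bifunctional enzyme for very long-chain acids and bile acid precursors, differed by −0.19 ± 0.33. Acot3, a peroxisomal thioesterase, differed by −0.51 ± 0.48 with overlapping groups.

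Genes that build peroxisomes had small differences, mostly toward lower means in Vascepa livers. Of 18 listed 15 were compared, 14 lower and 1 higher, where 60.1% of all genes were lower. The median difference was −0.09, against −0.06 for all genes and −0.143 for the 7211 brighter genes. Without Vascepa replicate 3 the counts were also 14 and 1, with a median of −0.13, against −0.02 for all genes. On those arrays 7158 of the 13493 genes were lower. Pex3 and Pex19, which insert membrane proteins such as the ABCD transporters, differed by −0.05 ± 0.21 and −0.17 ± 0.20. Pex11a, which promotes peroxisome division, was the higher one at 0.04 ± 0.25. Pex5, the import receptor for matrix proteins, read 6.19, 6.06 and 4.87 in Vascepa livers, against 6.23, 6.17 and 6.35 in vehicle livers, and its difference of −0.54 ± 0.34 includes that low value on Vascepa replicate 3. Pex14, its docking partner, differed by −0.39 ± 0.22, Pex6 by −0.37 ± 0.27 and Pex16 by −0.33 ± 0.21. In 1 of the 15, Pex14, the groups did not overlap, with 5.11% of all genes as background. None of the 15 passed (limma, lowest adjusted p = 0.976).

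Genes that supply long-chain substrates, by elongation, desaturation and activation, had lower means after Vascepa in 13 of 14 cases (median difference −0.26). Without Vascepa replicate 3 it was 11 of 14 (median −0.14). Of all genes 60.1% were lower, and 7158 of 13493 without that array. Fads2 and Fads1, the desaturases of polyunsaturated fatty acids, differed by −0.57 ± 0.39 and −0.41 ± 0.33. Tecr, of the elongation cycle, differed by −0.44 ± 0.26, and Elovl5, an elongase for polyunsaturated acids, by −0.38 ± 0.37. Medians by array, relative to the vehicle mean, were 0.16, −0.28 and −0.64 on Vascepa replicates 1, 2 and 3 and 0.05, −0.36 and 0.12 on vehicle replicates 1, 2 and 3. The groups overlapped, and the arrays low in this list were those high in small nucleolar RNAs, whose part in the result was not tested.

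The routes tied to Abcd3 depended on a single array. Omega-oxidation makes dicarboxylic acids, and 8 of its 10 genes compared had lower means after Vascepa (median −0.22), against 60.1% of all genes. Without Vascepa replicate 3, however, only 4 were lower and the median was 0.12. Cyp4a14, a fatty acid hydroxylase driven by the receptor PPAR alpha, did not follow that array, reading 9.60, 9.13 and 9.28 in Vascepa livers and 10.28, 10.38 and 10.39 in vehicle livers (−1.01 ± 0.19; limma, adjusted p = 0.976). Cyp4a31 differed by −0.52 ± 0.37, Cyp4f17 by −0.48 ± 0.33 and Aldh3a2, a fatty aldehyde dehydrogenase, by −0.36 ± 0.19. In 2 of the 10, Cyp4a14 and Aldh3a2, the groups did not overlap, with 5.11% of all genes as background. Relatives of the Cyp4a genes may share their probes. All 7 genes of the bile acid side-chain list were lower, with a median of −0.19, where 60.1% of all genes were lower. Some of the 7, Acox2 and Hsd17b4 among them, were also counted under peroxisomal oxidation. Without Vascepa replicate 3 only 3 of the 7 were lower, with a median of 0.08. Among the 7, Acox2, the oxidase for branched chains, differed by −0.38 ± 0.40, Slc27a5 by −0.28 ± 0.26 and Cyp27a1 by −0.20 ± 0.31.

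Cobalamin handling, the setting of Abcd4, was represented by 12 genes above the filter of 14 listed. After Vascepa 10 had lower and 2 higher means (median −0.14), where 60.1% of all genes were lower. Without Vascepa replicate 3 the counts were 8 and 4. Lmbrd1, the lysosomal partner of Abcd4, read 8.21, 7.90 and 7.36 in Vascepa livers, against 8.04, 7.96 and 8.06 in vehicle livers (−0.20 ± 0.24). Like Abcd4 it was lowest on Vascepa replicate 3 and overlapped between the groups. Mmachc and Mmadhc, which process cobalamin after its release, differed by −0.33 ± 0.19 and −0.06 ± 0.21. Tcn2, which carries cobalamin in blood, differed by −0.42 ± 0.21 and Mmab by −0.28 ± 0.27. Amn, part of the intestinal and renal receptor for cobalamin, was higher at 3.88, 4.10 and 4.72 in Vascepa livers, against 3.27, 3.42 and 3.51 in vehicle livers (0.84 ± 0.25; limma, adjusted p = 0.976). In 2 of the 12, Tcn2 and Mmachc, all Vascepa arrays were lower, with 5.11% of all genes as background. In 1, Amn, all were higher, as in 423 of all 13493 genes.

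Transcription factors known to act on peroxisomal and lipid genes had lower means after Vascepa in 11 of 12 cases (median −0.25). The share over all genes was 60.1%. Ppara, whose agonists raise Abcd2 and Abcd3 in rodent liver, read 7.89, 7.43 and 6.70 in Vascepa livers, against 7.75, 7.59 and 7.82 in vehicle livers (−0.38 ± 0.30), and the groups overlapped. Pparg, its relative of fat tissue, differed by −0.54 ± 0.26, Srebf2, of cholesterol synthesis, by −0.51 ± 0.32 and Rxra, the partner of PPAR and LXR receptors, by −0.43 ± 0.47. In 1 of the 12, Pparg, all Vascepa arrays were lower than all vehicle arrays, with 5.11% of all genes as background. Srebf1, which activates the Abcd2 promoter in cultured cells, differed by −0.21 ± 0.46, and Nr1h3 (LXR alpha) by 0.01 ± 0.24. Without Vascepa replicate 3 there were 9 lower and 3 higher, with a median of −0.11. None passed (limma, lowest adjusted p = 0.976).

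**Figure D4:**
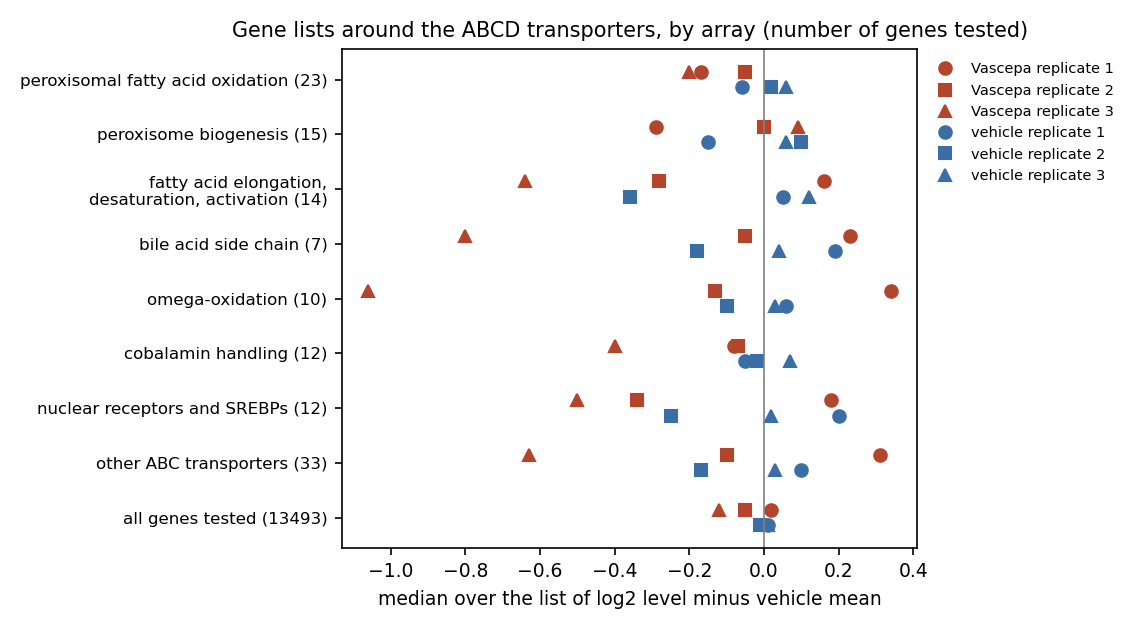
Median, over the genes of each list, of the log2 level minus the gene's mean in vehicle livers, for each Vascepa array (red, upper row) and each vehicle array (blue, lower row), with the number of genes compared in parentheses. Vascepa replicate 3 lies lowest in most lists, at −1.06 in omega-oxidation and −0.63 in other ABC transporters, while all genes lie at −0.12 on that array.

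The genes whose pattern over the 6 arrays was most like that of Abcd2 were ranked by Pearson's r among 3866 named genes with a range of at least 1 on the log2 scale. This r is a description over 6 arrays that share their groups, and a high r follows in part from a difference between the groups. The 10 highest were Cyp2c38 (0.981), Atp6v0d2 (0.973), Cyp2b9 (0.938), Cd300ld (0.917), Timd4 (0.905), Ccl2 (0.899), Nipal1 (0.894), Dsg1c (0.893), Cyp4a14 (0.870) and Cyp2b13 (0.863). Cyp2c38, a cytochrome P450, followed Abcd2 most closely, at 5.93, 6.42 and 6.36 in Vascepa livers and 7.18, 6.95 and 7.17 in vehicle livers. Atp6v0d2, a subunit of the lysosomal proton pump found in macrophages, read 2.53, 2.93 and 2.83 in Vascepa livers and 4.44, 3.88 and 4.04 in vehicle livers. Cyp2b9, a cytochrome P450 of female mouse liver, read 7.68, 8.57 and 9.20 in Vascepa livers and 10.09, 10.01 and 10.07 in vehicle livers. Taking deviations from the group means alone, r with Abcd2 stayed above 0.6 for Cyp2c38, Atp6v0d2, Cyp2b9, Timd4 and Ccl2, at 0.85, 0.70, 0.72, 0.82 and 0.67, and was below 0 for Dsg1c, Cyp4a14 and Cyp2b13. Cyp2b9 and Cyp2b13 are close relatives and may share their probes.

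Genes that ran opposite to Abcd2 had r down to −0.898. These were Edn1, which encodes the vasoconstrictor endothelin (−0.898), Zfp282 (−0.877), the pseudogene Serpina4-ps1 (−0.868), Elavl3 (−0.864) and Btbd35f1 (−0.840). Edn1 read 3.40, 3.64 and 3.04 in Vascepa livers and 2.67, 3.01 and 2.63 in vehicle livers.

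**Figure D5:**
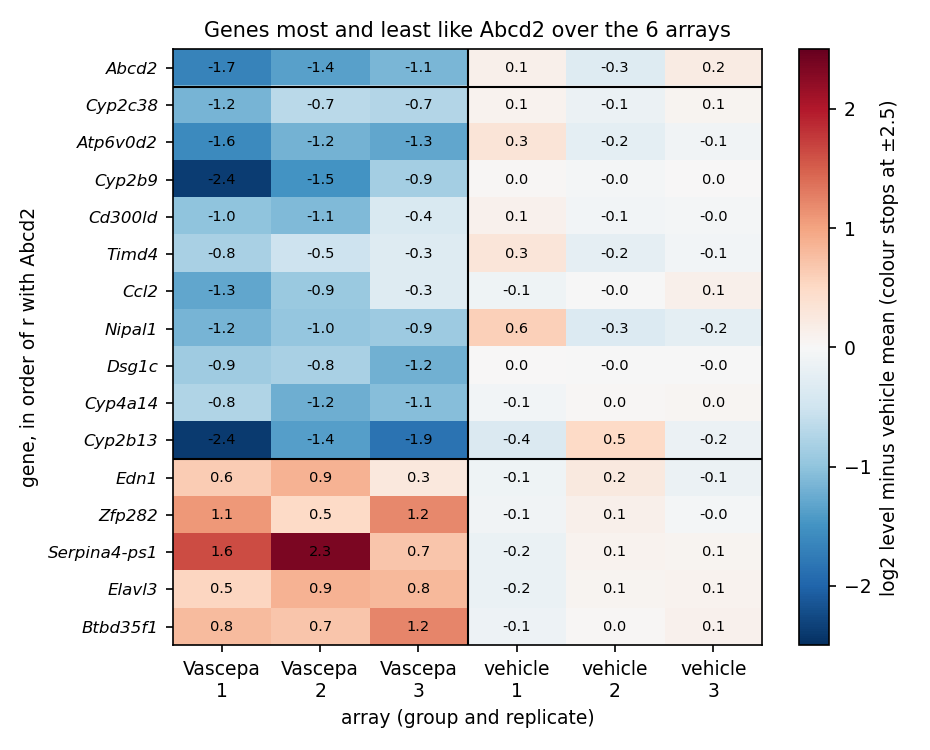
Log2 level minus the vehicle mean on each array for Abcd2 (top row), the 10 genes with the highest r with it and the 5 with the lowest, with Vascepa arrays on the left and vehicle arrays on the right. Cyp2b9 and Cyp2b13 reach beyond −2 on Vascepa replicate 1, and the 5 opposite genes are above 0 on every Vascepa array.

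More genes had a pattern like that of Abcd3 or Abcd4 than like that of Abcd2. Among genes with a range of at least 1, r with Abcd3 exceeded 0.9 in 779 of 3866 genes (20.2%), r with Abcd4 in 288 of 3867 (7.45%) and r with Abcd2 in 5 of 3866 (0.129%). The genes most like Abcd3, with a range of at least 0.5, were Ap1b1 (0.997), Ltn1 (0.996), Mga (0.996), Aass (0.995) and Iqgap2 (0.994). Those most like Abcd4 were Relch (0.995), Ubr7 (0.993), Ewsr1 (0.991), Zfp654 (0.990) and Atr (0.990). Aass, an enzyme of lysine breakdown, read 10.22, 9.92 and 9.18 in Vascepa livers and 10.01, 9.50 and 9.94 in vehicle livers, and Ubr7 read 5.30, 5.40 and 4.19 in Vascepa livers and 5.27, 4.96 and 5.22 in vehicle livers. Abcd3 and Abcd4 also resembled each other (r = 0.89), whereas r with Abcd2 was 0.00 for Abcd3 and 0.17 for Abcd4. Arrays low in Abcd3, Vascepa replicate 3 and vehicle replicate 2, were high in small nucleolar RNAs within their groups, and the part of this in the Abcd3 and Abcd4 values was not tested.

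Markers of other cells were read beside Abcd2. Of 8 markers of Kupffer cells, the resident macrophages of the liver, 7 had lower means after Vascepa (median −0.16), against 60.1% of all genes. The mean level of the 8 was 5.64 to 6.04 in Vascepa livers and 6.08 to 6.16 in vehicle livers. Timd4, Vsig4 and Cd68 differed by −0.54 ± 0.22, −0.53 ± 0.18 and −0.54 ± 0.20, and these 3 of the 8 had no overlap of the groups, with 5.11% of all genes as background, whereas Clec4f and C1qa differed by −0.09 ± 0.32 and −0.02 ± 0.26. The part of macrophages in the Abcd2 difference was not tested. Of 4 skeletal muscle markers 3 had higher means after Vascepa (median 0.42), and of 5 markers of sinusoidal endothelium 4 had lower ones (median −0.08). Of 7 adipocyte markers 6 had a probe and 3 were above the filter, and their mean level was 3.67 to 4.34 in Vascepa livers and 3.68 to 3.97 in vehicle livers. Adipoq and Lep, which define fat cells, were below the filter level of 2.65 on every array, at 1.79 to 2.25 and 1.27 to 1.85 in Vascepa livers and at 1.92 to 1.95 and 1.45 to 1.80 in vehicle livers.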

How the data were processed

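For 6 Affymetrix arrays of biotin-labelled liver RNA, the deposited table holds 1 log2 value for each transcript cluster. Per the submitters' processing notes it was made with Affymetrix Expression Console and RMA, with no versions stated. RMA corrects background, quantile-normalizes arrays and compresses differences of dim probes, and array number limits the precision. Of 41345 probes, 23521 had 1 symbol in the platform annotation, 1814 several and 16010 no entry. Symbols were updated by gene ID for 23328 probes. No genome build is named for the array, so no coordinates are given.

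Genes were represented by their brightest single-symbol probe with a mean of at least 2.65, the median over all probes. Vascepa and vehicle, 3 arrays each, were compared with limma 3.58.1 in R 4.3.3 with no covariate and Benjamini-Hochberg adjustment. The fit was tested on simulated data. Members, gene lists and rules were chosen with earlier results of these data known. Named genes are the members, the 10 genes most and 5 least like Abcd2, the 5 most like each relative, the 4 largest differences per pathway list, and fixed genes of the pathways. Abcg3 and marker genes are named for the counts they belong to. Neither labels nor values name a scan or slide, and no batch was tested. Alternatives changed the filter, normalization, variance model, weights, covariates, probe summary and arrays.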

Additional observations from a re-analysis of the deposited data

How the results depend on the processing

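The difference of Abcd2 lay between −1.46 and −1.28 in the 9 settings with all arrays and between −1.55 and −1.25 when 1 array was left out. For Abcd3 leaving out 1 array gave −0.25 to 0.26 and for Abcd4 −0.31 to 0.11, so neither has a settled sign. Weighting arrays by quality gave 0.03 for Abcd3 and 0.11 for Abcd4, and the small nucleolar RNA level as a covariate gave 0.21 and −0.01. Under the 75th percentile filter Abcd4 was not compared, so neither it nor the contrast has a value there. The contrast of Abcd2 with its relatives ran from −1.69 to −1.0 without 1 array and from −1.54 to −1.17 otherwise. The number of genes past the adjusted threshold was 0, and stayed 0 when any 1 array was left out (the lowest and highest count were both 0). It was 3 with the small nucleolar RNA covariate (Cyp2b13, Cyp2b9 and Orm3, chosen after their values were seen) and 4100 with array weights, where Vascepa replicate 2 had a weight of 39.5 and the others at most 2.33 and the weight estimate stopped before it converged. Abcd2 passed with these weights (limma, adjusted p = 0.000817), while in the other settings its adjusted p ran from 0.105 to 1. At an unadjusted p under 0.05, 362 genes became 2018 without Vascepa replicate 1, 221 without Vascepa replicate 2, 198 without vehicle replicate 1, 141 without vehicle replicate 3, 757 without a filter, 106 with the 75th percentile filter and 801 with the covariate. Deviations of same-numbered arrays had r = 0.61 in replicate 1, 0.11 in replicate 2 and −0.13 in replicate 3, and 3 of 6 arrays matched their own number best. Vascepa replicate 3 and vehicle replicate 2, with different numbers, also deviated together (r = 0.57). These values cannot decide whether the numbers pair the samples, since unpaired arrays can deviate together too. With the replicate block the count was 0 and Abcd2 differed by −1.39. Of 2340 recomputed differences of the other genes in the lists, 2308 moved by less than 1 SD and 32 by more, and 229 changed sign. The counts of list members without Vascepa replicate 3 were chosen after seeing the data. With quantile normalization again or centring, the medians of the 8 pathway lists kept their sign. With quantile normalization, peroxisome biogenesis had 10 of 15 lower (median −0.02), cobalamin handling 7 of 12 (median −0.08) and omega-oxidation 9 of 10 (median −0.12).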

Other observations

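The tested genes next to Abcd2 on its chromosome, taken by position and not by value, did not show its separation. Kif21a, a kinesin, read 6.72, 5.61 and 4.79 in Vascepa livers and 6.62, 5.29 and 6.41 in vehicle livers, and Lrrk2, a kinase, read 2.94, 2.65 and 2.75 in Vascepa livers and 3.32, 2.87 and 2.87 in vehicle livers. Their differences were −0.40 ± 0.52 and −0.23 ± 0.20. Beyond them, Cpne8 differed by −0.32 ± 0.20 and Cntn1 by 0.43 ± 0.25. Around Abcd3 the nearest named genes, F3 and Arhgap29, differed by −0.29 ± 0.19 and 0.05 ± 0.22, and around Abcd4, Lin52 and Syndig1l differed by −0.18 ± 0.24 and −0.03 ± 0.27. None of these passed (limma, lowest adjusted p = 0.976).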
